A study of Mus musculus with 4 samples.

Results

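The subject is a set of 38 genes that mark lymphocytes of the B and T lineages, out of 22207 genes measured on mouse pancreatic islet arrays. Members were chosen by name from general knowledge of lymphocytes, but with earlier results of these data known, so counts of members are descriptive. The lists of other genes used below were also chosen with those results known. Probes of the members were found by the gene name in the scanner files. Jchain is listed there under its older symbol Igj. By lineage, 12 members belong to B cells and plasma cells, 21 to T and natural killer (NK) cells, and 5 are shared among lymphoid cells. All 38 members had a probe, 53 probes in all, and a gene with several was represented by the probe with the highest mean log2 intensity over the arrays.

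The study compared gene expression in islets of 4 groups of C57BL/6 mice aged 24 weeks, with 1 single-colour Agilent array per group. Wild-type males (male WT) were set against males carrying a transgene (male Tg), which the labels call diabetic. Further arrays held islets of transgenic males 6 weeks after an implant of E2, the usual abbreviation of estradiol (male Tg E2), and of transgenic females (female Tg). The labels do not name the transgene, its promoter or the cells it is active in, give no implant dose, and do not say how many mice gave the RNA of an array. There was no sham implant or wild-type female array, so neither the implant procedure nor sex alone has a control here.

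Islets were released with collagenase, separated on a density gradient and picked by hand, and their total RNA was labelled with Cy3. With 1 array per group there is no replicate error, and no p-value can be given. A difference is therefore printed with the standard error (SE) of the scanner software's error model, which covers measurement noise within the arrays and not the spread between mice. The defining genes of beta cells, those of insulin, were well above background on every array. Ins1 had a scaled level of 88719 on male WT, 139381 on male Tg, 97846 on male Tg E2 and 95892 on female Tg, where the scaled level is the intensity divided by the 75th percentile of that array's probes and multiplied by 100. No spot was saturated, between 49.9% and 54.8% of spots were well above background by the scanner software's call, and the 75th percentile of intensity was 410.2, 230.0, 338 and 294 in the same order. The male Tg array was thus the dimmest. The lowest scaled level that still counted as well above background was 4.63, 7.58, 6.65 and 8.21, so weak members could be measured at a lower level on the male WT array than on the others.

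B cells recognise antigen through a surface immunoglobulin that signals through the CD79 chains, and they mature into plasma cells that secrete antibody. T cells recognise antigen with a receptor that signals through the CD3 chains and the kinases LCK and ZAP70, with CD4 or CD8 as coreceptor. Cytotoxic T cells and NK cells kill through granules that hold perforin and granzymes. Endocrine cells of the islet are not lymphocytes, and lymphocytes in a pancreas are found in blood, in lymphoid tissue and in inflamed islets. In RNA of whole islets, fewer cells of a type and less RNA per cell cannot be told apart.

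The start regions of the members are shown first, and a link between motifs and levels on the arrays was not tested. RefSeq promoters of build GRCm38.p6, from 250 bases before to 50 after each start, matched 27 of the 38 members with 34 promoters, against 32851 promoters of all genes. They were searched on both strands for 4 motifs of lymphoid transcription factors. The ETS core GGAAGT was found in 12 of 34 member promoters, or 35.3%, and in 23.8% of all promoters. The RUNX core TGTGGT was found in 10, or 29.4%, and in 16.8% of all. The E box CAGCTG was found in 5, or 14.7%, against 16.3%, and the octamer ATTTGCAT in 0, against 1.74%. None of the motifs contains another, a match is only a match of letters, and several promoters can belong to 1 gene. The ETS core was also found for Cd3e and Prf1, and the RUNX core for Prf1 and Nkg7. By the probes used, these members were less than 2-fold apart between male Tg and male WT. The 6 windows printed are of 60 bases, given 5′ to 3′ on the gene's strand, with the motif in capitals in whichever orientation it occurs. They show genes of the B cell receptor (Cd79a), of B cell surface (Cd37), of the T cell receptor (Cd3d) and of T cell surface (Cd5) with the ETS core, and both granzymes with the RUNX core. They lie at chr7:24897416-24897475 on the plus strand for Cd79a, chr7:45239026-45239085 on the minus strand for Cd37, chr9:44981560-44981619 on the plus strand for Cd3d, chr19:10738993-10739052 on the minus strand for Cd5, chr13:113100999-113101058 on the minus strand for Gzma and chr14:56262395-56262454 on the minus strand for Gzmb.
Cd79a: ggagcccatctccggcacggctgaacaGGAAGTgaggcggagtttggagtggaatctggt
Cd37: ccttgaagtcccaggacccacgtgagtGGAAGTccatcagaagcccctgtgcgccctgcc
Cd3d: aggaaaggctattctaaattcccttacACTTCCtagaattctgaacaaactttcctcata
Cd5: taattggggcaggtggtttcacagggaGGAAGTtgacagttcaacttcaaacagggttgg
Gzma: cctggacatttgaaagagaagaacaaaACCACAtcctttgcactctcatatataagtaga
Gzmb: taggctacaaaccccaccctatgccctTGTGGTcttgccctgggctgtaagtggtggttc

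Most members were high on male Tg and female Tg, lower on male Tg E2 and lowest on male WT. Of the 28 members well above background on all arrays, 22 had male Tg and female Tg as the highest pair. These were 9 of 9 B lineage, 11 of 16 T and NK and 2 of 3 shared members. Male WT was lowest for 21 of the 28, male Tg E2 for 5 and female Tg for 2. The highest array was male Tg for 14 members, female Tg for 12, male WT for Cd3e and male Tg E2 for Ikzf3. For several of them, among these Cd5 and Ikzf1, the 2 untreated Tg arrays lay within 1 SE of each other. The order of arrays was not counted over the 13817 genes well above background on all arrays. How far the members' order differs from that of all genes is therefore not known. Members well above background numbered 29 on male WT, 35 on male Tg, 30 on male Tg E2 and 34 on female Tg. Blk, Ctla4 and Foxp3 were not well above background on any array, so for these members no difference can be given.

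**Figure D1:**
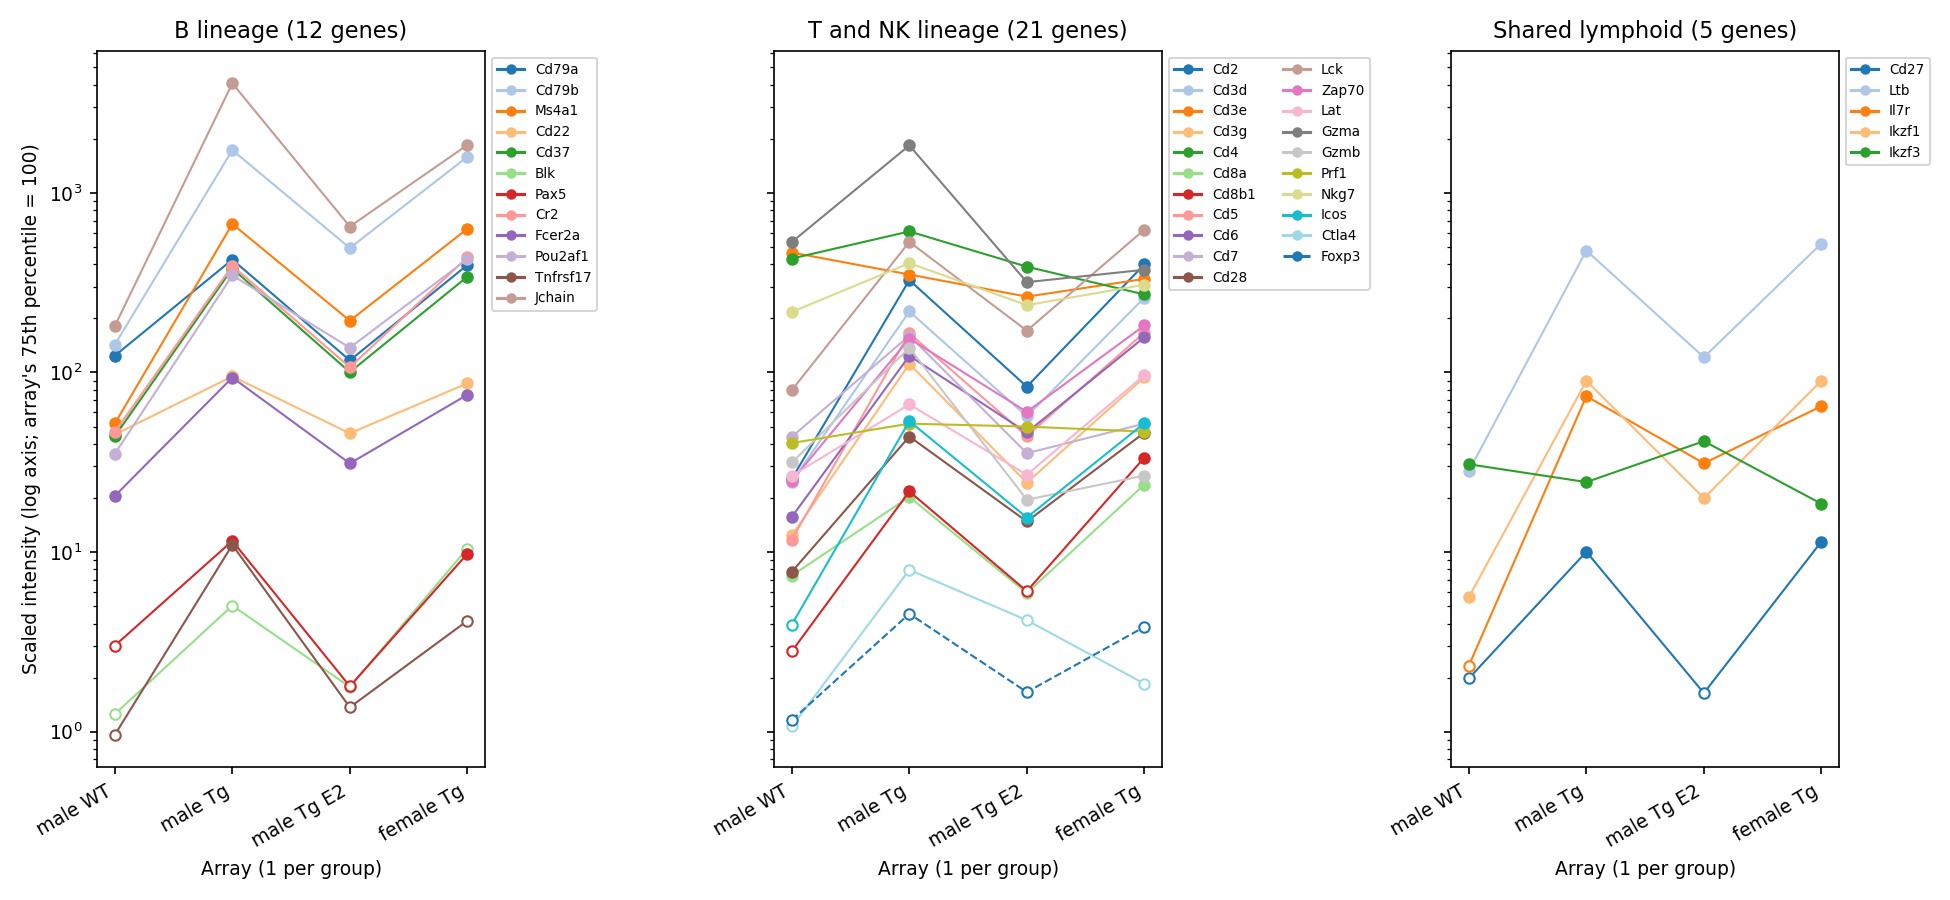
Scaled level of each member (y axis, log scale, 75th percentile of an array = 100) on each array (x axis), in a panel per lineage, with open points for spots not well above background and lines that only join points of 1 gene. The 9 B lineage members measured on all arrays are higher on male Tg and female Tg than on male WT and male Tg E2. Of the other members measured on all arrays, Cd3e, Cd4, Gzma, Gzmb, Prf1 and Ikzf3 show no such split.

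The antigen receptor chains of B cells were high on both untreated Tg arrays. Cd79b, a signalling chain of the B cell receptor, had a scaled level of 143 on male WT, 1731 on male Tg, 493 on male Tg E2 and 1587 on female Tg. The male Tg level was 12.1-fold the male WT level, or 3.60 ± 0.20 log2 (SE), and male Tg E2 was 3.51-fold below male Tg. Its partner Cd79a had levels of 124, 425, 117 and 397 in the same order, a difference of 1.78 ± 0.20 log2 between male Tg and male WT. By these probes the male Tg E2 level of Cd79a was as low as that of male WT, whereas that of Cd79b was 3.45-fold above male WT. A second Cd79a probe, whose match on mm9 spans 258 bases, gave 3.20 (not well above background), 20.2, 7.98 and 21.8, so male Tg was at least 4.37-fold above male WT there. By that probe male Tg E2 was well above background and male WT was not. The match of male Tg E2 to male WT for Cd79a thus rests on the chosen probe.

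The 5 B cell surface members had the same order of arrays, apart from the place of the 2 untreated Tg arrays. Ms4a1, which encodes the CD20 antigen, had levels of 52.0, 672, 194 and 631, and male Tg was 12.9-fold above male WT. Cr2, the complement receptor of mature B cells, had levels of 46.7, 393, 106.9 and 437. Cd37, a tetraspanin of mature B cells, had 44.2, 379, 100.4 and 341. Each of these 3 genes was more than 8-fold higher on male Tg than on male WT. Fcer2a, the low-affinity IgE receptor CD23, had levels of 20.5, 93.8, 31.2 and 75.1. Cd22, an inhibitory coreceptor, had 45.1, 95.2, 45.8 and 87.0, the smallest B lineage difference between male Tg and male WT at 1.08 ± 0.21 log2. Second probes of Cr2 (14.4, 84.7, 27.3 and 75.4) and Cd37 (4.34, not well above background, then 51.6, 10.5 and 66.2) also had both untreated Tg arrays above the other arrays.

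Both untreated Tg arrays were also the highest for the regulators Pou2af1 and Pax5. Pou2af1, a coactivator of immunoglobulin gene transcription, had levels of 35.2, 347, 137 and 428. Pax5, the factor that commits cells to the B lineage, was well above background only on male Tg (11.5) and female Tg (9.78), with 3.01 on male WT and 1.79 on male Tg E2. That places male Tg at least 2.49-fold above male WT and at least 1.74-fold above male Tg E2. The other Pax5 probe was not well above background on any array. Jchain, which joins the units of secreted IgM and IgA, had levels of 181, 4075, 649.7 and 1848. At 22.5-fold, or 4.49 ± 0.20 log2, its difference between male Tg and male WT was the largest of the measured members. Unlike the mature B cell genes, Jchain was 2.21-fold lower on female Tg than on male Tg. Tnfrsf17, the plasma cell receptor BCMA, was well above background only on male Tg (11.0), against 0.961, 1.37 and 4.14 on the other arrays. This puts male Tg at least 2.37-fold above male WT, at least 1.65-fold above male Tg E2 and at least 1.34-fold above female Tg.

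Among the T cell receptor chains, Cd3d and Cd3g followed the B cell genes and Cd3e did not. Cd3d had levels of 24.6, 219, 57.0 and 261, and Cd3g 12.4, 112, 24.3 and 94.1. For these chains male Tg was 8.88-fold and 9.03-fold above male WT. Cd3e, the CD3 epsilon chain, had levels of 466 on male WT, 351 on male Tg, 264 on male Tg E2 and 332 on female Tg. Its level was highest on male WT, and male Tg was lower by 0.41 ± 0.20 log2 (-0.41). Only 1 probe of Cd3e was on the array, so no second probe bears on this value.

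Several surface members of T cells were high on both untreated Tg arrays. Cd2, an adhesion receptor of T and NK cells, had levels of 25.6, 327, 83.4 and 399.6. Cd5, a negative regulator of receptor signalling, had 11.7, 165, 44.2 and 167, which placed male Tg 14.1-fold above male WT. Cd6, a scavenger receptor of T cells, had 15.7, 124, 46.4 and 157. In Cd2 and Cd6 female Tg was the highest array, whereas in Cd5 female Tg and male Tg differed by only 0.01 ± 0.21 log2. The second probe of Cd2 gave 2.43 (not well above background), 41.8, 9.31 and 47.5, while the second probe of Cd6 was well above background only on male WT (5.99), so it gives no difference between the arrays.

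The coreceptors were less uniform. Cd8a, the alpha chain of CD8, had levels of 7.40, 20.3, 5.91 (not well above background) and 23.8. The other Cd8a probe was well above background only on male Tg (8.51). Cd8b1, the beta chain, had 2.80 and 6.06 on male WT and male Tg E2, neither well above background, and 21.8 on male Tg and 33.6 on female Tg. For Cd8b1 male Tg was at least 4.70-fold above male WT and at least 3.27-fold above male Tg E2. Cd4, the coreceptor of helper T cells, had levels of 431, 610, 388 and 272, within 1.42-fold of male WT on male Tg, and lower on female Tg than on male Tg by 2.24-fold.

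The Cd4 values rest on 1 probe of a pair that disagree, as do those of Nkg7, a granule membrane protein. The second Cd4 probe was not well above background on any array, with 1.79 on male WT and 3.84 on male Tg. For Nkg7 the probe chosen by the rule gave 217, 406, 237 and 308, and the other 11.6, 64.4, 11.8 and 58.9. Between male Tg and male WT, the difference of Nkg7 was thus 0.90 ± 0.20 log2 by the chosen probe and 2.48 by the other. The last 30 bases of both pairs are shown, with the polyadenylation signal AATAAA in capitals where it occurs, because the probes of a pair gave different values. The probes lie on mm9 at chr6:124814711-124814770 and chr6:124817706-124817765 for Cd4, minus strand, and at chr7:50693530-50693589 and chr7:50693148-50693207 for Nkg7, plus strand, the chosen probe first.
Cd4 chosen probe: acagaaaAATAAAggctataAATAAAatgc
Cd4 other probe: gcagtgtctactgagtgaaggtgataaggt
Nkg7 chosen probe: ccaccttgccttatccttcattggtttctt
Nkg7 other probe: ccagtatgagatggagccagactccatttt
The chosen Cd4 probe holds the signal and the other Cd4 probe does not, and neither Nkg7 probe holds it. Of the 38 probes used for members 11 hold it, or 28.9%, and of the 15 other member probes 0, against 10.1% of all 55681 probes. The 15 other probes are those the rule left out for lower mean intensity, so the probe sets were divided by intensity. A link between the signal and probe values was not tested. The Cd3e probe, which ends in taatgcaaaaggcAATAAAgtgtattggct (mm9 chr9:44806828-44806887, minus strand), is among the 11. So are those of Cd79a, Cd37, Pou2af1, Cd2, Cd28, Icos and Lck, which were high on both untreated Tg arrays. The rest are those of Cd4, Cd7 and Gzma, which were lower on female Tg than on male Tg by more than 2-fold.

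Genes of T cell receptor signalling were high on both untreated Tg arrays. Lck, the kinase that phosphorylates the CD3 chains, had levels of 79.8, 533, 171 and 624. Zap70, the kinase recruited to them, had 24.9, 154, 60.4 and 183, and its second probe 11.0, 61.9, 23.4 and 71.3. Lat, the adaptor they phosphorylate, had 26.6, 66.4, 26.9 and 96.6. For all 3 genes female Tg was the highest array and male WT the lowest. Cd28, the costimulatory receptor of naive T cells, had 7.77, 44.0, 14.8 and 46.2. Icos, a costimulatory receptor of activated T cells, was not well above background on male WT (3.95) and had 53.6, 15.6 and 52.2 on the other arrays, at least 11.6-fold above male WT on male Tg. Its other probes were higher on male Tg than on female Tg, with 27.4 against 17.5 for one and 16.2 against 1.92, not well above background, for the other.

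The granzymes and Cd7, like Cd4, were lower on female Tg than on male Tg by more than 2-fold. Gzma, a granzyme of cytotoxic T and NK cells, had levels of 533 on male WT, 1839 on male Tg, 318 on male Tg E2 and 373 on female Tg. Gzmb, the granzyme that cleaves caspases, had 31.6, 137, 19.6 and 26.7. Cd7, a surface protein of T and NK cells, had 43.8, 160.4, 35.5 and 51.9. In each of these 3 genes male Tg stood alone as the high array. The levels of Gzma and Gzmb on male Tg E2 and female Tg were below those on male WT. Prf1, which encodes perforin, stayed between 40.5 and 51.9 on all arrays.

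**Figure D2:**
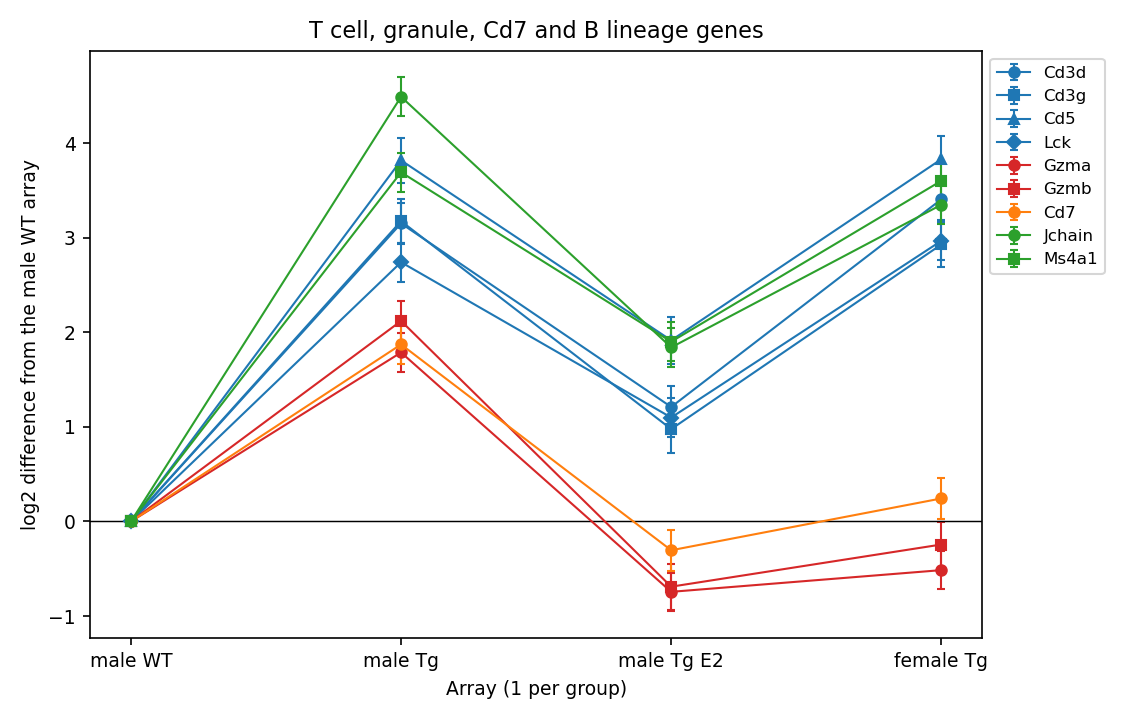
Log2 difference from the male WT array (y axis) on each array (x axis) for T cell genes (blue), granzymes (red), Cd7 (orange) and B lineage genes (green), with bars of 1 SE from the scanner software's error model and no bar on male WT, the reference. Gzma, Gzmb and Cd7 stand high on male Tg alone, whereas Cd3d, Cd3g, Cd5, Lck, Jchain and Ms4a1 are also high on female Tg. The genes drawn are a selection and do not stand for their whole class. Cd3e, Cd4 and Prf1, which were not high on both untreated Tg arrays, are among those not drawn.

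The shared lymphoid members ranged from the strongest followers of the pattern to an exception. Ltb, a cytokine chain that organises lymphoid tissue, had levels of 28.2, 477, 122 and 522, 16.9-fold above male WT on male Tg. Ikzf1, the Ikaros transcription factor of lymphoid development, had 5.60, 89.9, 19.97 and 89.95. Il7r, the interleukin-7 receptor, was not well above background on male WT (2.33) and had 73.8, 31.2 and 64.9 elsewhere, at least 15.9-fold above male WT on male Tg. Cd27, a costimulatory receptor of memory cells, was well above background only on male Tg (10.04) and female Tg (11.4). The other Cd27 probe was well above background only on male Tg (8.99). Ikzf3, the related factor Aiolos, had 30.8, 24.5, 41.5 and 18.6, with male Tg E2 as the highest array. A second Ikzf1 probe was not well above background on any array, so it gives no difference. The remaining one gave 1.17, 25.5, 4.22 and 25.1, and was well above background only on male Tg and female Tg.

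Between male Tg and male WT, 24 of the 29 measured members were at least 2-fold higher and 0 were lower, where measured means well above background on both arrays. Over all genes measured in this comparison, 15.5% passed 2-fold upward and 9.06% downward. A further 6 members were at least 2-fold higher by their lower bounds (Pax5, Tnfrsf17, Cd8b1, Cd27, Il7r and Icos). By lineage, 9 of 9 B lineage, 13 of 17 T and NK and 2 of 3 shared members were higher, with median differences of 3.10 log2 for B lineage and 2.12 for T and NK members. The median over the measured members was 2.63 log2, beside -0.22 over all 14310 genes measured. The members less than 2-fold apart were Cd3e, Cd4, Prf1, Nkg7 and Ikzf3, although the other Nkg7 probe gave 2.48 log2. The difference was more than 2 SE for 26 of 29. The sign for Ikzf3 changed with the scaling. The balance of calls over all genes also moved, from 63.1% higher among those called to 77.9% with genes centred on their median and 76.8% with the percentile taken over probes above background on all arrays, and 25 of 29 members were higher under both. With normexp background correction 22 of 29 members were higher, and 21 when quantile normalization was added.

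Between male Tg E2 and male Tg, 25 of 30 measured members were at least 2-fold lower on male Tg E2 and 0 were higher, with 7.96% of all genes lower and 2.61% higher. With normexp 21 members were lower, and 20 when quantile normalization was added. All 9 measured B lineage members were lower, with a median of -1.81 log2 and a range from -2.65 (Jchain) to -1.05 (Cd22). Of T and NK members 13 of 17 were lower, with a median of -1.64. The largest T and NK differences were in Gzmb at -2.81 ± 0.24 and Gzma at -2.53 ± 0.20 log2, 7.01-fold and 5.78-fold lower. Cd3g followed at -2.20 and Cd7 at -2.18. Cd8a and Cd8b1 were also lower, by at least 3.05-fold and 3.27-fold. The 5 measured members less than 2-fold apart were Cd3e (-0.41), Cd4 (-0.65), Nkg7 (-0.78), Prf1 (-0.05) and Ikzf3 (0.76). The other Nkg7 probe, not used for these counts, gave -2.45 ± 0.27 log2. The sign for Prf1 changed with the scaling. The male Tg array enters both comparisons, so the differences are not independent of each other.

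Levels on male Tg E2 were above those on male WT for part of the members. At least 2-fold higher on male Tg E2 were 6 of 9 B lineage, 6 of 16 T and NK and 14 of 28 measured members in all, with 8.78% of all genes higher and 2.69% lower. The median was 1.20 log2 for B lineage and 0.62 for T and NK members. For Cd79a, Cd22, Cd4, Lat and Nkg7 the levels on male Tg E2 and male WT lay within 1 SE of each other by the chosen probes. The second Cd79a probe was well above background on male Tg E2 (7.98) and not on male WT (3.20). Of the 4 cytotoxic granule members 0 were 2-fold higher, with a median of -0.28 log2.

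**Figure D3:**
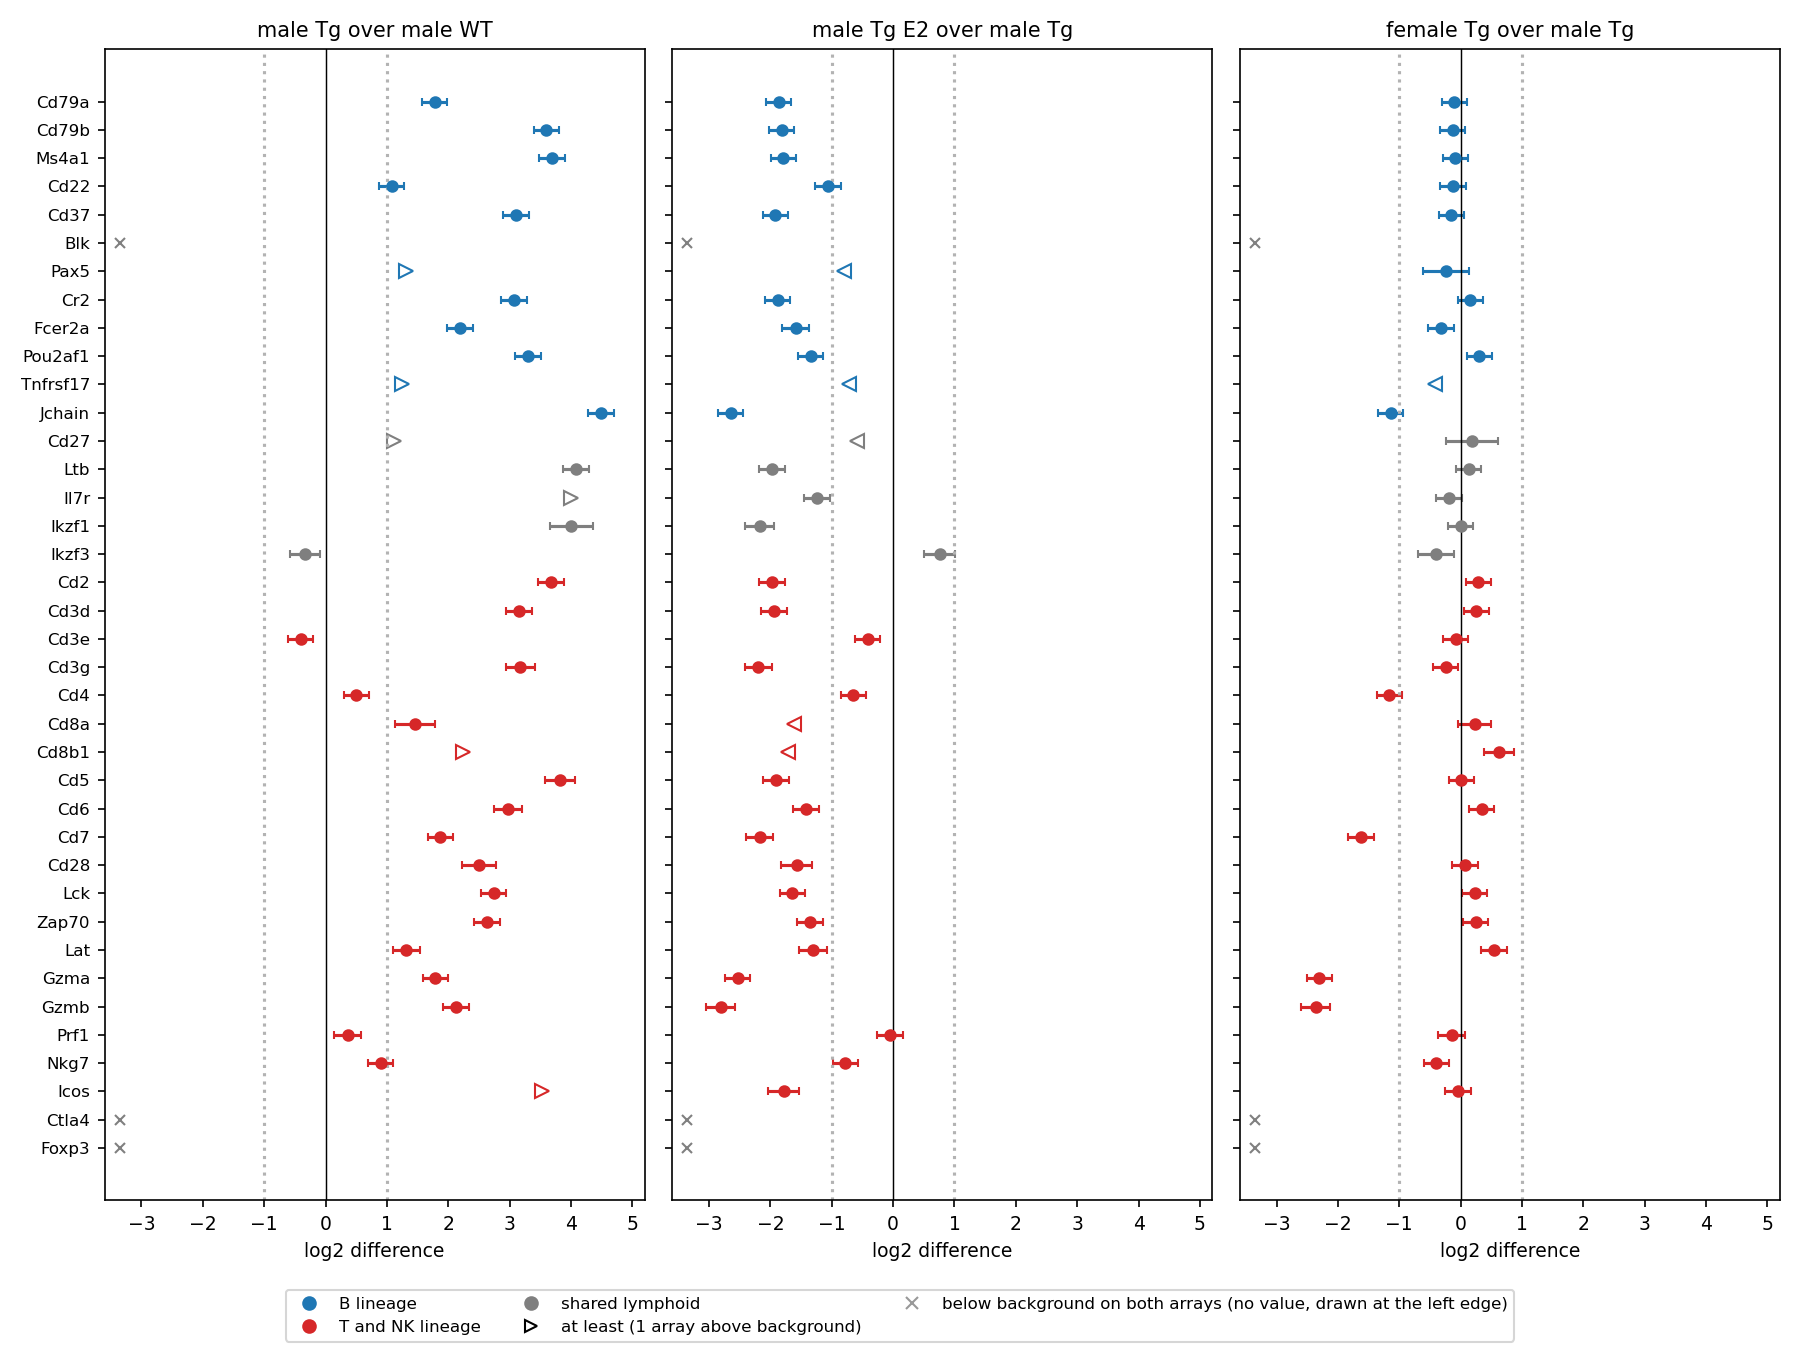
Log2 differences of every member in 3 comparisons of single arrays, with bars of 1 SE, open triangles for bounds, crosses at the left edge for members below background on both arrays and dotted lines at 2-fold. The first panel lies to the right of 0 for 24 members past 2-fold, the second to the left for 25, and in the third only Jchain, Cd4, Cd7, Gzma and Gzmb pass 2-fold.

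Between female Tg and male Tg, 29 of 34 measured members were less than 2-fold apart, and 5 were lower on female Tg, with 8.48% of all genes lower and 3.62% higher. Most genes were likewise less than 2-fold apart, 12424 of 14134 measured, so this similarity is not particular to the members. The median was -0.13 log2 for 10 B lineage members and 0.01 for 19 T and NK members, and 0 of 5 shared members passed 2-fold. The lower members were Gzmb (-2.36 ± 0.23), Gzma (-2.30 ± 0.20), Cd7 (-1.63 ± 0.21), Cd4 (-1.17 ± 0.20) and Jchain (-1.14 ± 0.20). Of the others, Cd8b1 (0.63 ± 0.25) and Lat (0.54 ± 0.21) differed by more than 2 SE, both higher on female Tg. The 9 measured B lineage members other than Jchain ranged from -0.32 (Fcer2a) to 0.30 (Pou2af1). The signs for Ms4a1, Cd5, Cd27, Ikzf1 and Icos changed with the scaling. A difference under 2-fold on single arrays does not show that these genes had equal levels in the mice.

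Against male WT, female Tg had 20 of 29 measured members at least 2-fold higher, beside 7.64% of all genes higher and 3.52% lower. These were 8 of 9 B lineage members, with a median of 3.23 log2, and 10 of 17 T and NK members, with a median of 1.86. Of the 4 cytotoxic granule members 0 passed 2-fold by the chosen probes, with a median of -0.02 log2. The other Nkg7 probe had 58.9 on female Tg and 11.6 on male WT, both well above background, so it was more than 2-fold higher on female Tg. Between female Tg and male Tg E2, 21 of 30 members were higher on female Tg and 1, Ikzf3, was lower, with 3.21% of all genes higher and 4.35% lower, or 7.57% in either direction.

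Related B lineage genes outside the members were also mostly higher on male Tg than on male WT. Of 25 further B lineage genes with a probe, 22 were measured between male Tg and male WT, and 20 were higher and 0 lower, with a median of 2.96 log2. The receptor for the survival factor BAFF, Tnfrsf13c, was higher on male Tg by 3.97 log2, and the follicle homing receptor Cxcr5 by 3.79. On male Tg E2 17 of 22 were lower than on male Tg (median -1.67), and on female Tg 0 of 23 were 2-fold apart from male Tg (median 0.04). Among plasma cell genes, Mzb1 and Sdc1 were higher on male Tg than on male WT by 3.33 and 3.14 log2, whereas Prdm1, the transcription factor of plasma cells, had levels of 48.9, 39.8, 45.1 and 57.1, lowest on male Tg. Female over male Tg, Mzb1 differed by 0.11 and Sdc1 by -0.95, beside -1.14 for Jchain.

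Of 30 further T and NK genes, 14 were measured between male Tg and male WT, of which 10 were higher and 1 lower, with a median of 2.06 log2. Il2rb, a chain of the interleukin-2 receptor, was higher by 3.24. The lower gene was Skap1, an adaptor of T cells, with levels of 1951, 469, 701 and 1363. On male Tg E2 11 of 16 were lower than on male Tg, with a median of -1.28. On female Tg 1 of 22 was higher than on male Tg (Skap1) and 3 were lower (Cd226, Klrd1 and Ifng), with a median of 0.06. The NK receptor genes Klrb1c, Ncr1 and Klrk1 were not well above background on any array. Klrd1, which encodes the receptor chain CD94 of NK and cytotoxic T cells, had levels of 8.57, 37.5, 12.2 and 14.5, with male Tg as the highest array, as for Gzma and Gzmb. Cd247, the zeta chain of the T cell receptor, had levels of 15.7, 14.1, 11.2 and 16.0 and, like Cd3e, did not show the pattern.

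Markers of other cells moved with the members to different degrees. Pan-leukocyte genes, which lymphocytes express too, were higher on male Tg than on male WT in 11 of 12 cases (median 2.44 log2) and lower on male Tg E2 than on male Tg in 11 of 12 (median -1.55). Their summed scaled levels were 1695, 6948, 2606 and 6525. Macrophage and dendritic cell genes had sums of 15116, 17834, 15823 and 15891, with 5 of 12 measured genes higher on male Tg than on male WT and 1 of 12 lower on male Tg E2 than on male Tg. Erythroid genes had sums of 9749, 45830, 4414 and 13228, and all 4 measured were higher on male Tg than on male WT, and lower on male Tg E2 and on female Tg than on male Tg. All 5 platelet genes, with sums of 3432, 7877, 712 and 4091, were lower on male Tg E2 than on male Tg, with a median of -3.56 log2. The summed levels of red cell and platelet genes were thus highest on male Tg, as were the levels of Gzma, Gzmb and Cd7. By its lower bound, 1 further erythroid gene was at least 2-fold higher on female Tg than on male Tg. Granulocyte genes were higher on male Tg than on male WT in 4 of 5 cases, lower on male Tg E2 than on male Tg in 3 of 6, and had a median of -0.99 log2 for female Tg over male Tg. The part of blood cells in the members' differences was not tested.

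Exocrine, matrix and lymphoid stromal genes moved as well. Acinar genes, which encode digestive enzymes, had sums of 115221, 967042, 603644 and 125386, with 11 of 12 higher on male Tg than on male WT (median 4.52 log2). On female Tg 11 of 12 acinar genes were lower than on male Tg (median -4.15), while the members' median was -0.09 there. Stellate cell and matrix genes were higher on male Tg than on male WT in 7 of 7 cases (median 3.86) and lower on female Tg than on male Tg in 6 of 8 (median -1.19), with 0 of 8 past 2-fold between male Tg E2 and male Tg. Genes of lymph node stroma and venules were higher on male Tg than on male WT in 5 of 10 cases and lower in 0, and on male Tg E2 1 was higher and 3 lower than on male Tg (median -0.44 log2). Among them Cxcl13, the chemokine that draws B cells into follicles, had levels of 51.5, 809, 193 and 561, and Ccl19, which draws T cells, had 14.9, 206, 52.0 and 250.4. Glycam1, a ligand of L-selectin on lymph node venules, had levels of 11.3, 231, 453 and 1023, so that male Tg E2 was above male Tg. Enpp2, which makes lysophosphatidic acid, had 4208, 2165, 6003 and 3164, and the lymphatic genes Lyve1 and Prox1 were also below male WT on male Tg, at -0.74 and -0.49 log2. Beta cell genes were lower on male Tg than on male WT in 5 of 9 cases. The part of exocrine, connective or lymph node tissue in the picked material was not tested.

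**Figure D4:**
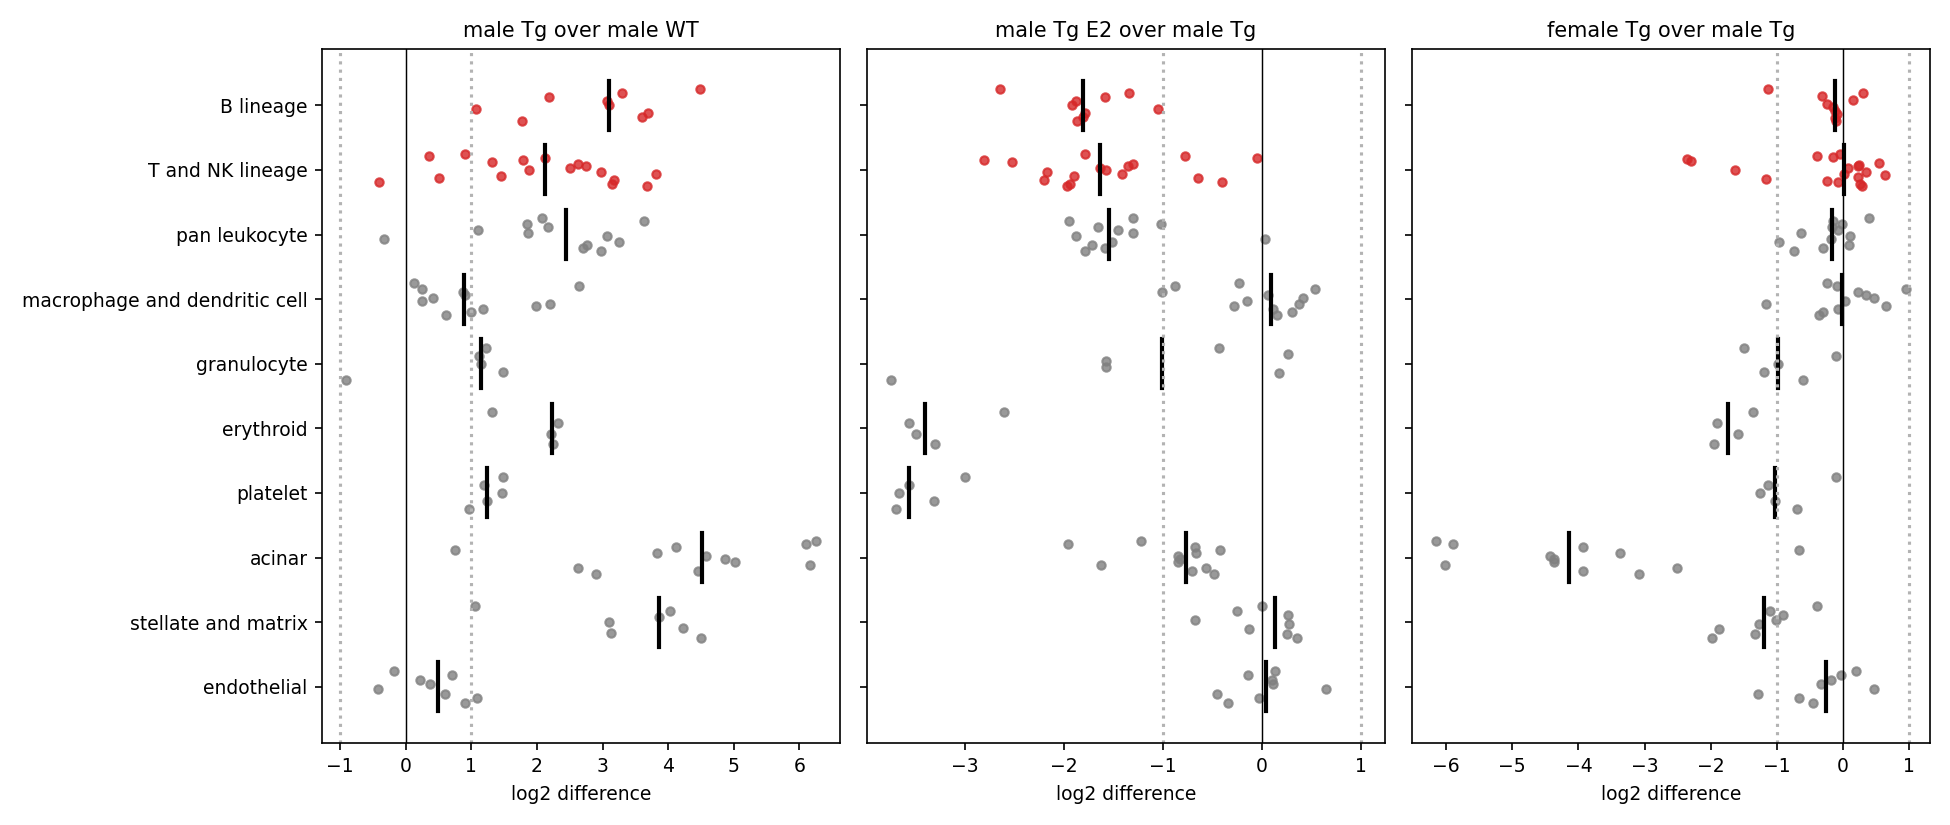
Log2 differences of single genes (points) and their medians (bars) for the members by lineage and for lists of other cell types, in 3 comparisons of single arrays, with only genes measured on both arrays plotted. In female Tg over male Tg the lymphocyte medians lie near 0, as does the median over all genes (0.11, not plotted), while the acinar median is -4.15 and the erythroid median -1.75.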

How the data were processed

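The deposited scanner files hold the Cy3 intensity of each spot, on a linear scale and background-corrected by the authors' Feature Extraction software, version 10.7.1.1 per the file headers and 9.5.1.1 per the submitters' processing notes. Probe positions refer to mm9 per the file headers, and exon or UTR was not assigned. All 4 arrays lay on 1 slide with 1 scan time. The deposited value table, another intensity on a linear scale, has the same median and maximum in every column and was used as an alternative. Unused columns of samples numbered 0.

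Spots with an outlier flag and control spots were left out, spots of a probe were averaged, and log2 intensity minus each array's 75th percentile was compared (Python 3.11.15, pandas 2.3.3, numpy 2.4.6). The alternatives used limma 3.58.1 in R 4.3.3. Genes are the names in the files that are RefSeq symbols or synonyms. A difference needs both spots well above background. With 1 such spot, it is a bound against the lowest signal well above background on the other array, or the probe's own if higher. The threshold of 2-fold is descriptive. Over all genes the median difference was -0.22, 0.13 and 0.11 log2 for male Tg over male WT, male Tg E2 over male Tg and female Tg over male Tg.

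Every member is named. Not every further list has genes named, and those named were mainly genes with large differences or high levels. Others (Tcra and other receptor-chain probes, Cd247, Klrb1c, Ncr1, Klrk1, Klrd1, Mzb1, Sdc1, Prdm1, Lyve1, Prox1 and second probes) were named after their values were seen, and a few genes are not reported here. The members and lists were chosen with earlier results of these data known. Simulated arrays with planted differences served to test the calculation.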

Additional observations from a re-analysis of the deposited data

How the results depend on the processing

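With 1 array per group no replicate could be left out, and array count, not depth, limits precision. No paired analysis was possible because each group has 1 array and the labels give no shared replicate numbers. The count of B lineage members 2-fold apart between female Tg and male Tg, 1 as reported, was 0 with quantile normalization, with normexp and quantile normalization, with the deposited value table and at 4-fold, and 3 with no background filter. At 4-fold, 1 of 9 B lineage and 4 T and NK members were lower on male Tg E2 than on male Tg, and 2 T and NK members (Gzma and Gzmb) on female Tg. The T and NK median of female Tg over male Tg, 0.01 as reported, became -0.012 with the percentile over probes above background on all arrays, -0.040 with no background filter and -0.10 when centred on the median of all genes, an alternative added after seeing the data. Over the alternatives, B lineage medians ranged from 2.67 to 3.32 log2 for male Tg over male WT, from -1.94 to -1.61 for male Tg E2 and from -0.24 to -0.09 for female Tg, both over male Tg. T and NK medians ranged from 1.52 to 2.50, from -1.77 to -1.12 and from -0.10 to 0.02. The cause of these shifts was not tested.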

Other observations

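Probes named for antigen receptor chains, variable or constant, were looked at after the members' values were seen. Of 12 such probes, 3 were well above background on all arrays and 6 on none, among these the Igkc and Tcrb-J probes. The Igh-VJ558 probe that was above background on all arrays, for an immunoglobulin heavy chain, had scaled levels of 51.5 on male WT, 911 on male Tg, 106 on male Tg E2 and 353 on female Tg. It was higher on male Tg than on male WT by 4.14 ± 0.21 log2 and differed by -1.37 ± 0.20 between female Tg and male Tg, beside -1.14 ± 0.20 for Jchain. The Ighv14-2 probe had levels of 25.4, 233, 64.9 and 272, with female Tg as the highest array. The other Igh-VJ558 probe was above background only on male Tg (35.4) and female Tg (64.3), so the immunoglobulin probes differ in whether male Tg or female Tg was higher. The Igkv4-72 probe had 57.0, 62.4, 56.0 and 28.1 and did not show the order of the B lineage members. The Tcra probe was near background, with 4.95 and 9.31 on male WT and male Tg E2 and no call on the other arrays.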
